A study of Mus musculus with 10 samples.

Results

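In mouse liver, 6 genes outside the lipid synthesis enzymes, namely Tmem97, Npc2, Cyb5b, Aldoc, Tff3 and Hes6, were described over 5 groups of mice in which nuclear SREBP was raised, lowered or left as it was. They are 6 of the 8251 genes that the arrays measured with a probe set of 1 gene symbol. They are represented by 7 probe sets of 10833, with 2 for Cyb5b and 1 for each of the others, and for Cyb5b the probe set with the higher mean over the 10 arrays stands for the gene. The genes were chosen by their measured differences between the transgenic or Scap knockout pools and wild type in these same arrays. Those differences are therefore a description, and the calls made on them below carry no weight as tests.

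SREBPs are transcription factors held in the endoplasmic reticulum until the escort protein SCAP carries them to the Golgi, where proteases release the nuclear form. In liver, SREBP-2 chiefly drives genes of cholesterol synthesis and uptake, SREBP-1c drives fatty acid synthesis, and SREBP-1a activates both. They bind sterol regulatory elements in promoters, usually with the help of NF-Y at CCAAT boxes or of Sp1 at GC boxes.

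Liver RNA of male mice was hybridised to Affymetrix MG_U74Av2 arrays. The transgenic set held TgSREBP-1a and TgSREBP-2 mice, which express nuclear human SREBP-1a or SREBP-2, and wild type littermates. All were aged 12 to 16 weeks and had 2 weeks on a diet high in protein and low in carbohydrate, and these controls are called high-protein wild type below. In the published lines of these names the transgene is under the promoter of phosphoenolpyruvate carboxykinase, which this diet induces. The Scap set held Scap knockout mice (Scap-/-;MX1-Cre) and chow-fed wild type, aged 10 to 12 weeks on Teklad chow, and both received 4 injections of polyinosinic-polycytidylic acid, with livers taken 14 days after the last. Mx1-Cre answers to interferon and acts in blood-forming cells as well as hepatocytes. Each group is 1 RNA pool of 5 mice on 2 arrays, so every error and p-value below measures the spread between hybridisations of a pool and carries no difference between mice. Diet, age and injections differ together between the transgenic set and the Scap set. RNA of whole liver cannot tell fewer cells of a type from less RNA per cell.

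Levels are log2 signals, and a difference of 1 is a 2-fold change. Duplicates correlated at 0.9921 to 0.9978 over genes, and array medians lay between 6.37 and 6.40. All 60 values of the 6 genes were above the median of their array. Hepatocyte markers (6 measured, among them Alb and Ttr) averaged 12.11 to 12.30 on the arrays of 4 pools and 11.75 to 11.88 in TgSREBP-1a. There Ttr was called lower than in high-protein wild type (-1.37 ± 0.10). Of the 6 markers 5 had an adjusted p under 0.05, with a list median of -0.37. Alb, 1 of these 5, was higher (0.27 ± 0.08), and the others of the 5 were lower. The part of these marker differences in the TgSREBP-1a differences below was not tested. The 4 measured cholangiocyte markers averaged 5.15 to 5.41, below the array medians. A gene is called higher or lower at an adjusted p under 0.05 (limma, Benjamini-Hochberg over 8251 genes) with at least a 1.5-fold difference. Values after ± are moderated standard errors, with n = 2 arrays per group.

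The promoters are shown because the 6 genes moved together in pools with raised or lowered nuclear SREBP. RefSeq (GRCm38.p6) gave the 250 bases before the start site for 5 of the 6 genes, with 2 start sites each for Aldoc and Hes6. Capitals mark the sterol element TCACNCCAC and the CCAAT box, searched on both strands, so a box on the other strand reads ATTGG. For Aldoc and Hes6 the window that held a match is printed. The windows are chr11:78322823-78323072 on the plus strand for Aldoc, chr11:78550736-78550985 on the minus strand for Tmem97, chr12:84773113-84773362 on the minus strand for Npc2, chr8:107150411-107150660 on the plus strand for Cyb5b and chr1:91413223-91413472 on the minus strand for Hes6.
Aldoc: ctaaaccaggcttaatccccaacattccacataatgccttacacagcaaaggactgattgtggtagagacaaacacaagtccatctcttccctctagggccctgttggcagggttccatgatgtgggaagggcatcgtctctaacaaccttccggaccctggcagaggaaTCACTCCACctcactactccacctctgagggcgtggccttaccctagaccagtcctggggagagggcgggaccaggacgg
Tmem97: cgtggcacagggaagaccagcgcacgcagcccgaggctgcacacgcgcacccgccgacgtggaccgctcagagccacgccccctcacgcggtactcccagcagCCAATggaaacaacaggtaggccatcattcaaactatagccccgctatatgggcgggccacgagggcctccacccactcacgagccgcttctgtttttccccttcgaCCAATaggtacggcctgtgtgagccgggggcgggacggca
Npc2: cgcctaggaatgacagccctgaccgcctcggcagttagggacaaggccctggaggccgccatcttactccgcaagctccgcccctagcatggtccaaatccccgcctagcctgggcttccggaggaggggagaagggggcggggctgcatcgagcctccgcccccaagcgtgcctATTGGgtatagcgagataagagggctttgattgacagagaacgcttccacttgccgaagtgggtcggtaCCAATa
Cyb5b: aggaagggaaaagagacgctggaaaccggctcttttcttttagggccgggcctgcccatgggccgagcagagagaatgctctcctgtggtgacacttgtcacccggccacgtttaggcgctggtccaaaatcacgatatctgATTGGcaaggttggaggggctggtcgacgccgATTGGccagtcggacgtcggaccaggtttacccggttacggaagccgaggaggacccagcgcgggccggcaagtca
Hes6: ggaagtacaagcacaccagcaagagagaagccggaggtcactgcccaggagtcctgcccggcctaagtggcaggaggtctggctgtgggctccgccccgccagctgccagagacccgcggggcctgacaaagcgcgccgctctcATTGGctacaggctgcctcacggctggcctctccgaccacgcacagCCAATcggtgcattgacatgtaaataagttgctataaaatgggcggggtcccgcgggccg

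The Aldoc window held an exact sterol element, TCACTCCAC, from -80 to -72 relative to the start. Exact matches were present in 1.05% of all 32851 promoter windows of this length. In none of the other windows of the 6 genes was the element found, even with 1 letter different, a looser match that 20.7% of all windows held. Tmem97 carried 2 CCAAT boxes (from -147 and -40), Npc2 2 (from -75 and -6), Cyb5b 2 (from -108 and -76) and the printed Hes6 window 2 (from -106 and -60). At least 1 such box was found in 33.9% of all windows and at least 2 in 10.1%. The GC box GGGCGG, held by 32.7% of all windows on either strand, was present in the Tmem97, Npc2, Aldoc and printed Hes6 windows and not in that of Cyb5b. The E-box CACGTG (6.02% of all windows) was in none. The motifs searched do not overlap in these windows, and a match describes letters, not binding.

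Tmem97, an endoplasmic reticulum protein of the sigma-2 receptor that binds the lysosomal sterol transporter NPC1, had the largest difference of the 6 genes in the TgSREBP-1a pool and in the TgSREBP-2 pool. Its log2 signal read 10.78 and 10.66 on the TgSREBP-1a arrays, 10.76 and 10.57 on the TgSREBP-2 arrays, and 8.87 and 8.76 for high-protein wild type. In the Scap set it was 9.55 and 9.70 in wild type and 8.61 and 8.69 in the knockout. The transgenic arrays all lay above every other array, and the duplicates of the 2 transgenic pools overlapped. The difference from wild type was 1.90 ± 0.10 (3.74-fold) for TgSREBP-1a, 1.85 ± 0.10 (3.60-fold) for TgSREBP-2 and -0.98 ± 0.10 (1.97-fold lower) in Scap knockout.

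Npc2 encodes a soluble lysosomal protein that hands cholesterol to NPC1, and it was the member with the smallest change on loss of Scap. TgSREBP-1a arrays read 10.27 and 10.16, TgSREBP-2 arrays 9.51 and 9.29, and arrays of high-protein wild type 8.60 and 8.35. It was 8.87 and 8.93 in chow-fed wild type against 8.54 and 8.57 in Scap knockout. The transgenic pools did not overlap with each other or with wild type, whereas the Scap knockout arrays fell within the range of high-protein wild type. The difference was 1.74 ± 0.11 (3.33-fold) for TgSREBP-1a, 0.93 ± 0.11 (1.90-fold) for TgSREBP-2 and -0.34 ± 0.11 in Scap knockout, short of 1.5-fold. This last difference had a limma adjusted p of 0.190, and of 0.0138 with only the arrays of the Scap set.

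Macrophages are rich in lysosomes, and their markers were measured beside Npc2. The median difference of the list was 0.62 in TgSREBP-1a and 0.32 in TgSREBP-2. Of all genes, 4.78% were called higher in TgSREBP-1a and 2.18% in TgSREBP-2. Of 10 measured markers 5 were called higher in TgSREBP-1a, among them Cd5l (1.53 ± 0.16) and C1qb (1.09 ± 0.09), and 3 in TgSREBP-2. Leaving out TgSREBP-2 replicate 1 left 1 of those 3, as did the mean of all probe sets of a gene. Leaving out either array of TgSREBP-1a gave 4 or 6. In TgSREBP-2 Marco (-0.32 ± 0.18) and Adgre1 (-0.09 ± 0.10) stood below high-protein wild type, and neither was called. The summed linear signal of the list was 4440 to 4664 in TgSREBP-1a, 3565 to 3834 in TgSREBP-2, 2760 to 2767 in high-protein wild type, 4032 to 4294 in chow-fed wild type and 3932 to 3996 in Scap knockout. Chow-fed wild type had a macrophage sum above that of TgSREBP-2, and its Npc2 signal was below that of both TgSREBP-2 arrays. These 2 pools also differ in diet, age and injections. The part of macrophages in the Npc2 difference was not tested.

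Cyb5b, the cytochrome b5 of the outer mitochondrial membrane, which passes electrons to oxidoreductases, was highest in TgSREBP-1a. Its signal was 10.29 and 10.06 there, 9.73 and 9.50 in TgSREBP-2, and 8.74 and 8.74 in high-protein wild type. Chow-fed wild type, at 9.58 and 9.62, lay between the 2 TgSREBP-2 arrays, and Scap knockout, at 8.62 and 8.73, lay just below high-protein wild type. The difference from wild type was 1.44 ± 0.10 (2.72-fold) for TgSREBP-1a, 0.88 ± 0.10 (1.84-fold) for TgSREBP-2 and -0.93 ± 0.10 (1.90-fold lower) in Scap knockout. The second, dimmer Cyb5b probe set gave 1.45 ± 0.14, 0.51 ± 0.14 and -0.79 ± 0.14, in the same directions. Its smaller TgSREBP-2 difference was not called, being short of 1.5-fold with a limma adjusted p of 0.0894 over 10833 probe sets.

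Aldoc, the aldolase C isozyme of glycolysis best known from brain, was highest in TgSREBP-2. Its signal was 8.93 and 8.98 there, 8.56 and 8.51 in TgSREBP-1a, and 7.25 and 7.34 in high-protein wild type. It was 7.67 and 7.56 in chow-fed wild type and 6.99 and 6.68 in Scap knockout. No 2 groups overlapped, so the order of the 5 pools ran from TgSREBP-2 through TgSREBP-1a, chow-fed wild type and high-protein wild type to Scap knockout. The difference from wild type was 1.66 ± 0.10 (3.15-fold) in TgSREBP-2, 1.23 ± 0.10 (2.35-fold) in TgSREBP-1a and -0.78 ± 0.10 (1.72-fold lower) in Scap knockout.

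Tff3 encodes trefoil factor 3, a small secreted peptide of mucosal surfaces. Its signal was 10.23 and 10.09 in TgSREBP-2, 9.87 and 9.93 in TgSREBP-1a, and 9.05 and 9.07 in high-protein wild type, against 8.75 and 8.81 in chow-fed wild type and 8.03 and 8.06 in Scap knockout. No 2 groups overlapped. It was the only 1 of the 6 genes with a higher mean in high-protein wild type than in chow-fed wild type. The difference from wild type was 1.11 ± 0.08 (2.15-fold) in TgSREBP-2, 0.84 ± 0.08 (1.80-fold) in TgSREBP-1a and -0.73 ± 0.08 (1.66-fold lower) in Scap knockout. Markers of 3 other epithelia were measured beside Tff3. The 6 measured exocrine pancreas markers were all called lower in TgSREBP-1a and in Scap knockout, against 2.59% and 0.921% of all genes. Their summed linear signal was 1209 to 1254 in TgSREBP-1a, 20981 to 21165 in TgSREBP-2 and 15856 to 15958 in high-protein wild type. It was 7576 to 7779 in chow-fed wild type and 1704 to 1768 in Scap knockout. In TgSREBP-2 1 of the 6, the trypsinogen gene Prss2, was called higher (0.63 ± 0.07), against 2.18% of all genes. The call was lost with quantile normalization (0.55). The sums and Tff3 had the same order in the 4 pools other than TgSREBP-1a, which had the lowest sum and the second highest Tff3 signal. The part of these cells in the Tff3 differences was not tested. Of the 6 intestinal markers only Lgals4 was called, lower in TgSREBP-1a at -0.75 ± 0.08, and limma called 0 in TgSREBP-2 and Scap knockout (3 and 1 with an unadjusted p under 0.05). For the 4 cholangiocyte markers limma called 0 in all 3 (0, 1 and 0 with an unadjusted p under 0.05).

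Hes6, a basic helix-loop-helix factor of the Hairy and Enhancer-of-split family that opposes Hes1, showed the smallest TgSREBP-1a difference and the largest Scap knockout difference of the 6 genes. TgSREBP-1a arrays read 8.22 and 7.87, TgSREBP-2 arrays 8.71 and 8.33, and arrays of high-protein wild type 7.43 and 7.30. It was 8.49 and 8.57 in chow-fed wild type and 7.50 and 7.54 in Scap knockout. Both transgenic pools were above their own wild type, but chow-fed wild type lay above TgSREBP-1a and between the 2 TgSREBP-2 arrays. The difference from wild type was 0.68 ± 0.14 (1.60-fold) for TgSREBP-1a, 1.15 ± 0.14 (2.22-fold) for TgSREBP-2 and -1.02 ± 0.14 (2.02-fold lower) in Scap knockout. Its duplicates were the farthest apart of the 6 genes in both transgenic pools. Without TgSREBP-1a replicate 1 the TgSREBP-1a difference was 0.51, short of 1.5-fold.

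**Figure D1:**
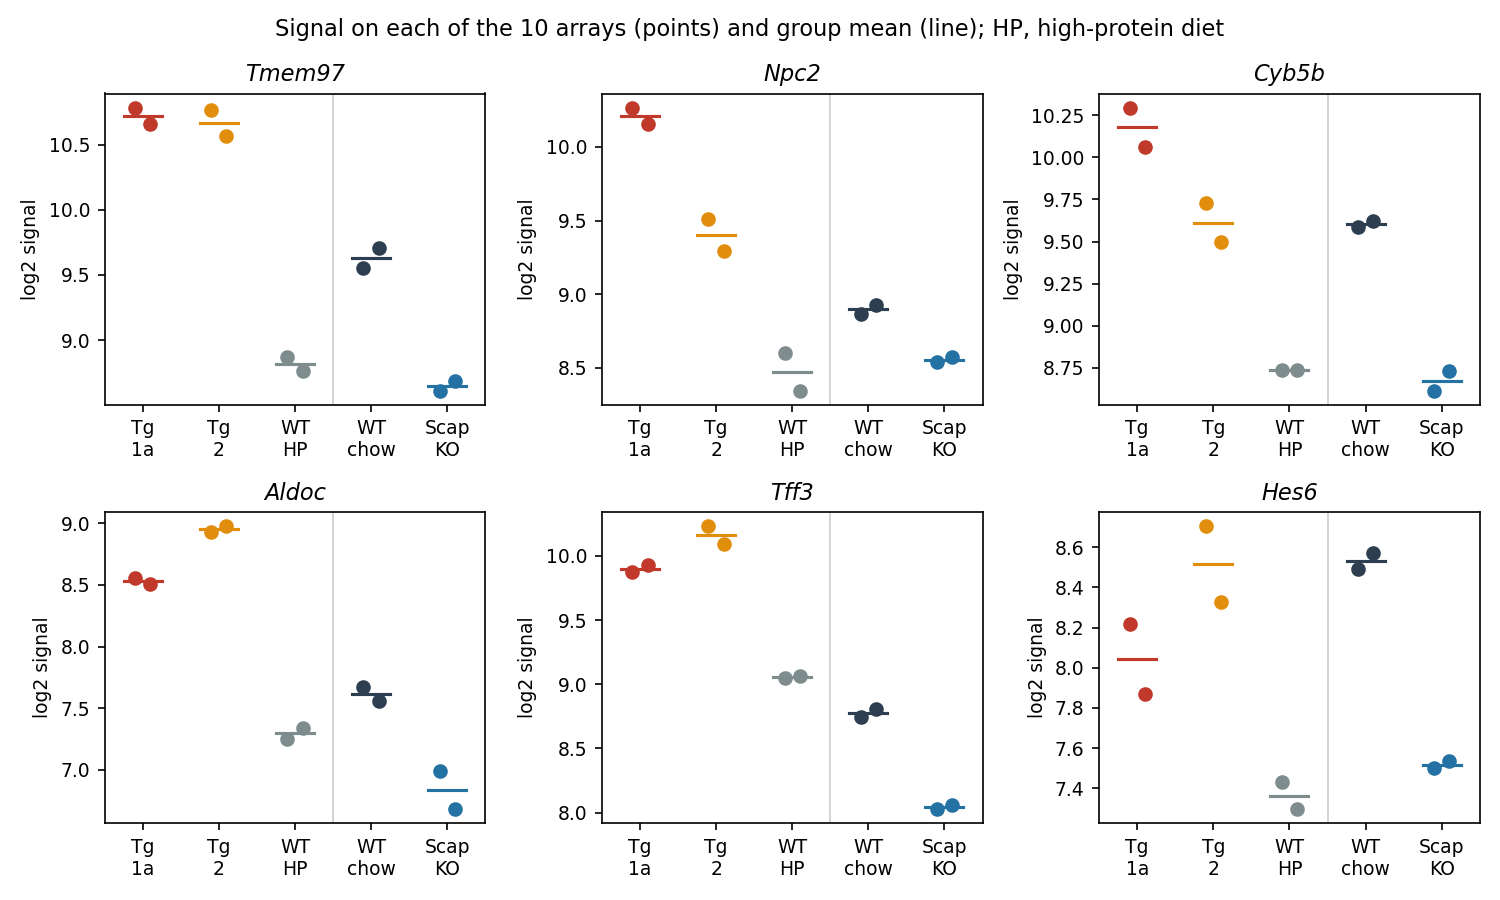
Log2 signal of the 6 genes (1 panel each) on the 10 arrays, with 2 points per pool and a line at their mean; Tg 1a and Tg 2 are TgSREBP-1a and TgSREBP-2, WT HP is high-protein wild type, and the vertical line separates the transgenic set from the Scap set. In every panel the transgenic pools lie above WT HP and Scap KO lies below WT chow; for Cyb5b and Hes6 the WT chow points fall between the 2 TgSREBP-2 points.

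Set against the share of all genes, 6 of 6 were called higher in the TgSREBP-1a pool, where the share of the 8251 genes called was 4.78% higher and 2.59% lower. For TgSREBP-2 the count was 6 of 6 higher, against 2.18% of all genes, with 0.388% lower. In Scap knockout 5 of 6 were called lower, against 0.921% of all genes, with 0.739% higher. These counts follow from how the genes were chosen and carry no further weight. The TgSREBP-1a and TgSREBP-2 comparisons share the same wild type arrays.

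The direct comparison of the 2 transgenic pools asked which of the 6 genes differed between them. It sets 1 pool of each line against the other and is called the difference between the isoforms for short. It was not itself among the differences that chose the genes. It equals the TgSREBP-1a difference minus the TgSREBP-2 difference, though, so it rests on the same values. Npc2 was higher in TgSREBP-1a by 0.81 ± 0.11 (1.75-fold, limma adjusted p = 0.000567), with all 4 pairs of arrays in that direction. Cyb5b was higher in TgSREBP-1a by 0.57 ± 0.10 (1.48-fold, limma adjusted p = 0.00513), just short of 1.5-fold. On its second probe set the Cyb5b difference was 0.94 ± 0.14 and was called (limma adjusted p = 0.00153 over 10833 probe sets).

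The remaining genes were not called between the isoforms. Aldoc was lower in TgSREBP-1a than in TgSREBP-2 by a log2 difference of -0.42 ± 0.10 (95% interval -0.65 to -0.19, limma adjusted p = 0.0249), a difference under 1.5-fold. Hes6 stood at -0.47 ± 0.14 (-0.78 to -0.17, limma adjusted p = 0.0558) and Tff3 at -0.26 ± 0.08 (-0.44 to -0.09, limma adjusted p = 0.0633). Tmem97 stood at 0.06 ± 0.10 (-0.16 to 0.28, limma adjusted p = 0.829), and its sign turned without TgSREBP-1a replicate 1 or TgSREBP-2 replicate 2. With the replicate number as a block the adjusted p of Hes6 was 0.00109 and that of Tff3 0.0285, with the same differences under 1.5-fold. In all, 1 of 6 was called, with TgSREBP-1a above for 2.24% of all genes and below for 2.95%. Leaving out single arrays added Cyb5b (0.68 without TgSREBP-1a replicate 2 or without TgSREBP-2 replicate 1) or Hes6 (-0.65 without TgSREBP-1a replicate 1 and -0.66 without TgSREBP-2 replicate 2). The amount of nuclear SREBP in the 2 lines was not analysed here.

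**Figure D2:**
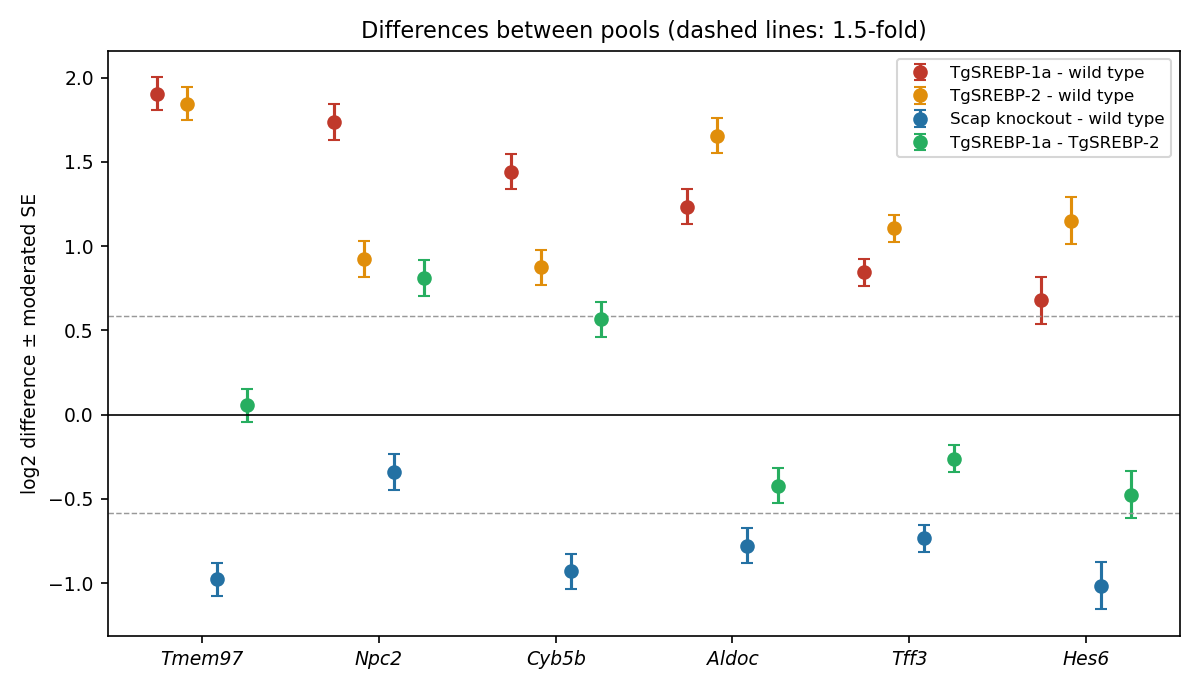
Log2 differences of the 6 genes with their moderated standard errors for 4 comparisons (n = 2 arrays per group); the dashed lines mark 1.5-fold. The 2 transgenic comparisons are above 0 and Scap knockout is below 0 for each gene, and the difference between the isoforms is past 1.5-fold for Npc2 (0.81).

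For each gene, the 3 genes of most similar pattern were taken by Pearson's correlation over the 10 arrays, among 493 other genes whose group means spanned at least 1 on the log2 scale. The arrays are 2 per pool, so these values rest on 5 pools and are descriptive. Lss and Dhcr7, the lanosterol synthase and the last reductase of cholesterol synthesis, were closest to Tmem97 (r = 0.992 and 0.991) and also to Aldoc (0.979 and 0.966). Elovl6, a fatty acid elongase, was closest to Npc2 (0.986), followed by Rras (0.983) and the phospholipid transfer protein Pltp (0.983). Cyb5b was closest to Srebf1, the mouse SREBP-1 gene (0.980), and the citrate lyase Acly (0.973). H2-Q4, a histocompatibility gene with near-identical copies, came next for both Tmem97 (0.986) and Cyb5b (0.966), and the mevalonate decarboxylase Mvd came next for Aldoc (0.959). The closest genes to Hes6 were the sterol enzymes Msmo1, Nsdhl and Hmgcs1 (0.942, 0.916 and 0.891). For Tff3 the values were 0.923 for Dhcr7, 0.914 for the acute phase gene Orm2 and 0.911 for the phospholipid acyltransferase Lpcat3.

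Close relatives of the 6 genes were measured to see whether whole families moved. Npc1, the membrane partner of NPC2, stood at -0.30 ± 0.12, -0.20 ± 0.12 and 0.11 ± 0.12 in the TgSREBP-1a, TgSREBP-2 and Scap knockout comparisons. Cyb5a, the cytochrome b5 of the endoplasmic reticulum, stood at -0.26 ± 0.12, 0.17 ± 0.12 and 0.18 ± 0.12. Aldoa, the aldolase of muscle, stood at 0.18 ± 0.08, 0.21 ± 0.08 and 0.14 ± 0.08, and Hes1 at -0.11 ± 0.08, -0.10 ± 0.08 and 0.10 ± 0.08. None of these 4 genes was called in any of the 3 comparisons. Tff1 stood at 0.08 ± 0.08, -0.03 ± 0.08 and 0.05 ± 0.08 and was not called either, while Tff2 fell in TgSREBP-1a (-0.63 ± 0.07, limma adjusted p = 0.000208), opposite to Tff3. Ebp, a sterol isomerase of the same protein superfamily as TMEM97, rose in TgSREBP-1a (0.69 ± 0.13) and TgSREBP-2 (1.48 ± 0.13) and stood at -0.57 ± 0.13 in Scap knockout, short of 1.5-fold.

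**Figure D3:**
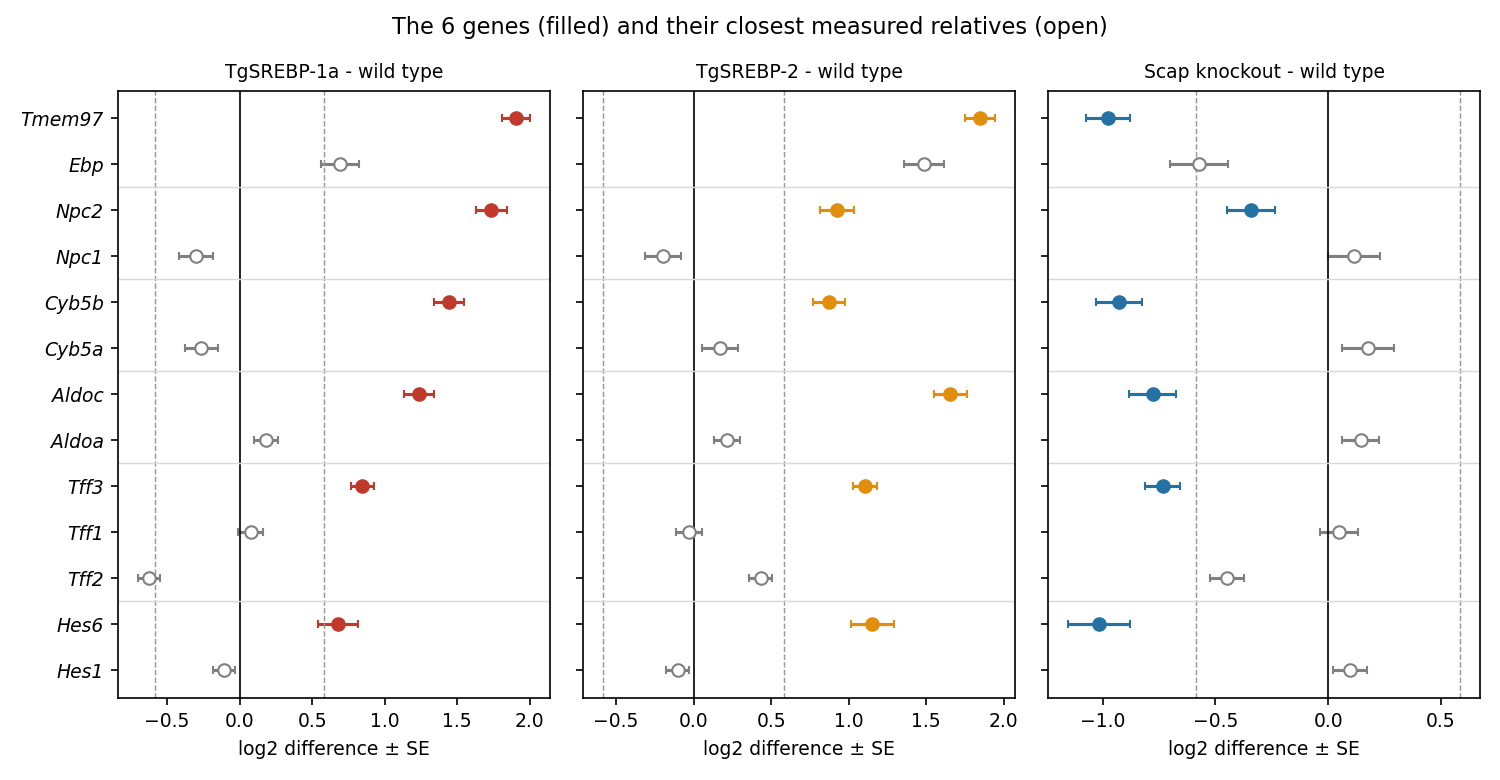
Log2 differences with moderated standard errors for the 6 genes (filled) and their closest measured relatives (open) in 3 comparisons with wild type; the dashed lines mark 1.5-fold. Of the 7 relatives, Ebp is past 1.5-fold in both transgenic comparisons and Tff2 in the TgSREBP-1a comparison, where it is lower.

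The wider lists around each gene are given as counts, to be read against the shares of all genes called. These were 4.78% higher and 2.59% lower in the TgSREBP-1a comparison and 2.18% and 0.388% in the TgSREBP-2 comparison. In Scap knockout they were 0.739% higher and 0.921% lower. Of 13 other genes of sterol uptake, trafficking and SREBP control, 2 rose in TgSREBP-1a (Srebf1 at 1.86 ± 0.07 and Ebp), 3 rose in TgSREBP-2 (Ebp, Srebf1 at 1.34 ± 0.07 and the heme-binding membrane protein Pgrmc1 at 0.59 ± 0.11) and 1 fell in Scap knockout (Srebf1). The list medians were -0.04, 0.08 and -0.03, against medians over all genes of -0.027, -0.020 and 0.0047. Pgrmc1 was not called without wild type replicate 2 (0.46) or TgSREBP-2 replicate 1 (0.51), with quantile normalization (0.41) or with only the arrays of the transgenic set (limma adjusted p = 0.0606).

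Of 9 other genes of cytochrome b5 electron transfer, 5 rose in TgSREBP-1a (median 0.89), 3 rose in TgSREBP-2 (median 0.20) and 3 fell in Scap knockout (median -0.31). These are mostly lipid enzymes that take electrons from cytochrome b5. Of all genes, 4.78% and 2.18% were called higher in the 2 transgenic comparisons, and 0.921% lower in Scap knockout. The desaturases Fads1 (2.10 ± 0.09) and Scd1 and the sterol enzymes Msmo1 and Sc5d rose in TgSREBP-1a. Cyb5r3, the reductase that feeds cytochrome b5, rose in TgSREBP-1a (0.89 ± 0.12) and stood at 0.02 ± 0.12 in TgSREBP-2. That difference between the isoforms was itself called (0.87 ± 0.12, limma adjusted p = 0.000975), in the same direction as for Cyb5b.

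Of 15 other glycolysis genes, 2 rose (the triose isomerase Tpi1 at 0.70 ± 0.11 and Pgam1 at 0.61 ± 0.10) and 1 fell (lactate dehydrogenase Ldha at -0.99 ± 0.11) in TgSREBP-1a. Pgam1 was not called without wild type replicate 2 (0.55) or with quantile normalization (0.56). Only Tpi1 rose in TgSREBP-2 (0.70 ± 0.11), short of 1.5-fold without TgSREBP-2 replicate 1 (0.56) and with quantile normalization (0.52). Limma called 0 of the 15 in Scap knockout, where 2 had an unadjusted p under 0.05. The list medians were 0.18, 0.14 and 0.06, against 1.23, 1.66 and -0.78 for Aldoc.

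Of 12 other trefoil, mucin and secretory genes, 2 fell in TgSREBP-1a, Tff2 and the polymeric immunoglobulin receptor Pigr (-2.96 ± 0.11), with a median of -0.12. Limma called 0 in TgSREBP-2 and 0 in Scap knockout, where 2 and 1 had an unadjusted p under 0.05. Of 19 other Notch and Hes/Hey genes only Id2 was called in TgSREBP-1a, lower at -0.59 ± 0.16. Its call was lost without wild type replicate 1 (-0.44) or TgSREBP-1a replicate 2 (-0.43), with arrays centred on their median (-0.58), with only the arrays of the transgenic set (limma adjusted p = 0.0764) and with array weights (limma adjusted p = 0.0616). Limma called 0 of the 19 in TgSREBP-2 and 0 in Scap knockout, with 3 and 1 at an unadjusted p under 0.05, and the list medians were -0.11, -0.08 and 0.04.

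The lipid enzyme lists were measured for comparison. They share genes such as Ebp, Msmo1, Sc5d, Fads1 and Scd1 with the wider lists above, so the lists are not independent. The 17 measured cholesterol synthesis enzymes had median differences of 1.99, 2.77 and -1.72 in the same order of comparisons, and the 11 fatty acid synthesis genes 2.50, 0.92 and -1.30. The 6 genes ranged from 0.68 to 1.90, from 0.88 to 1.85 and from -1.02 to -0.34. The isoform difference was -0.68 at the median of the cholesterol list, where 9 of 17 were called lower in TgSREBP-1a, against 2.95% of all genes. At the median of the fatty acid list it was 1.05, and 9 of 11 were called higher, against 2.24% of all genes. By sign alone, Npc2 and Cyb5b (0.81 and 0.57) went with the fatty acid list, and Aldoc, Hes6 and Tff3 (-0.42, -0.47 and -0.26) with the cholesterol list. Of these only Npc2 was called. Tmem97 (0.06) changed sign when single arrays were left out.

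Aldoc and Tmem97 lie on chromosome 11 with 228 kb between their start sites, and the 10 measured of 14 genes between them were examined as well. Limma called 0 of these 10 higher in any of the 3 comparisons with wild type. The shares of all genes called higher were 4.78%, 2.18% and 0.739%, so a count of 0 in 10 does not set these genes apart. In TgSREBP-1a 1 of the 10 was called lower, against 2.59% of all genes, and 4 had an unadjusted p under 0.05. The gene called was Vtn, the serum adhesion protein vitronectin (-0.97 ± 0.08). In TgSREBP-2 and Scap knockout 0 were called in either direction, with 2 and 2 at an unadjusted p under 0.05. Their differences ranged from -0.12 to 0.46 in TgSREBP-2 and from -0.40 to 0.22 in Scap knockout, with the folate transporter gene Slc46a1 at 0.46 and -0.40 in these 2.

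**Figure D4:**
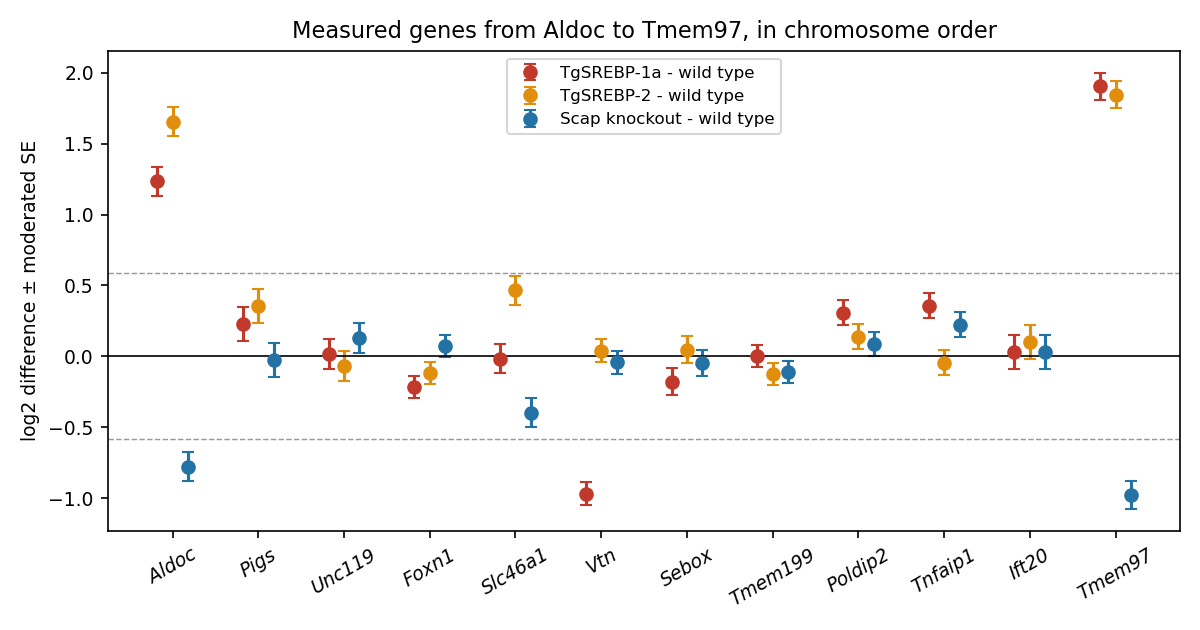
Log2 differences with moderated standard errors for Aldoc, Tmem97 and the 10 measured genes between them, in chromosome order with equal spacing (n = 2 arrays per group); the dashed lines mark 1.5-fold. Both ends stand past 1.5-fold in all 3 comparisons, and between them Vtn is past it, lower in TgSREBP-1a (-0.97).

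The wild type pools differed as well, which sets the level from which each transgenic or knockout difference starts. Because these pools are the controls of the comparisons that chose the genes, the differences between them are a description. Calls made on them carry no weight as tests for the 6 genes. High-protein wild type was below chow-fed wild type by -1.17 ± 0.14 for Hes6, -0.87 ± 0.10 for Cyb5b, -0.81 ± 0.10 for Tmem97, -0.42 ± 0.11 for Npc2 and -0.32 ± 0.10 for Aldoc, and above it by 0.28 ± 0.08 for Tff3. By the call rule 3 of 6 were lower, where 4.34% of all genes were called lower and 1.28% higher. The cholesterol list had a median of -1.15 in the same comparison, with 12 of 17 called lower. Macrophage markers were also lower, 4 of 10 called with a median of -0.56, and exocrine pancreas markers higher, 6 of 6. Diet, age and injections cannot be told apart here.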

How the data were processed

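Liver RNA of 5 groups of mice was measured on 10 arrays, 2 hybridisations of 1 RNA pool per group. The authors deposited 1 table of log2 signals for 12488 probe sets. RMA is the method named, per the submitters' processing notes, and its version is not given in the sources used here. The series' design text instead mentions Microarray Suite 5.0; the values were taken as RMA's. Such normalization between arrays makes values relative and can compress large differences. Detection calls were not used here.

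Probe sets were named by the platform annotation, with symbols updated through RefSeq gene IDs (10817 of 10833 with 1 symbol matched). Each gene is its probe set with the highest mean. All 10 arrays were fitted with limma 3.58.1 in R 4.3.3, 1 coefficient per group, 5 residual degrees of freedom, without a block, and Benjamini-Hochberg adjustment over 8251 genes. The test was tested on simulated data. The 6 genes, the lists and the rule for named genes were chosen with earlier results of these data known. That rule takes up to 3 called genes per list and comparison by size, called cell type markers, the closest relatives, and the 3 genes most alike per member. Slc46a1 and Vtn were named after their values were seen.

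Duplicates share replicate numbers. Between pools, arrays of the same number deviated together (r of 0.46, 0.61 and 0.60 for the 3 pairs of transgenic-set pools, 0.30 for the Scap set). The replicate block, nested in each set, was therefore fitted as an alternative. Others left out single arrays, renormalized, filtered dim probe sets, averaged probe sets, weighted arrays or moved the fold threshold.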

Additional observations from a re-analysis of the deposited data

Results flagged for a closer look

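Npc2 differed between the 2 transgenic pools by 0.81 ± 0.11 on the log2 scale, higher in TgSREBP-1a. It is listed here because its signal in these 2 pools differed by a test of the difference itself (limma adjusted p = 0.000567, 4 of 4 array pairs in that direction). That p-value measures the spread between hybridisations of 1 pool per line and carries no difference between mice. The difference is also the gap between differences that chose the genes. The summed linear signal of 10 macrophage markers also differed between these pools (4440 to 4664 against 3565 to 3834). That of 6 exocrine pancreas markers differed more (1209 to 1254 against 20981 to 21165), and the 6 hepatocyte markers had a median difference of -0.38. The part of these marker differences in the result was not tested. No group had enough arrays to look for single outlying ones.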

How the results depend on the processing

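The counts of called genes among the 6 in TgSREBP-1a (6) and TgSREBP-2 (6) stayed within 1.5 times under every alternative run. Both were 4 at a threshold of 2-fold, and the TgSREBP-1a count was 5 without TgSREBP-1a replicate 1. In Scap knockout 5 were called, and 1 at a threshold of 2-fold. Between the isoforms 1 was called. That count was 2 with quantile normalization and 2 with the mean of all probe sets of a gene, 0 at 2-fold and 3 with no fold threshold, and 2 to 2 when 1 array was left out. Between the wild type pools 3 were called, 1 at 2-fold and 5 with no fold threshold. The added calls between the isoforms were Cyb5b or Hes6, and with no fold threshold Cyb5b and Aldoc. The Tmem97 difference between the isoforms ranged from -0.041 to 0.16 over single arrays left out, and was -0.0045 without TgSREBP-1a replicate 1 and -0.041 without TgSREBP-2 replicate 2. The causes were not tested. With the replicate number as a block, 6, 6, 5, 1 and 3 of the 6 genes were called in the 5 comparisons, as without it, and no call of a gene changed. With only the arrays of a set the block-free counts were 6, 6, 5 and 1. Duplicates differed by at least 1.5-fold for 151, 101 and 55 genes in TgSREBP-1a, wild type and TgSREBP-2 on the high-protein diet and for 6 and 0 in Scap knockout and chow-fed wild type, while the fit uses 1 variance per gene, and 2 arrays of 1 pool limit every comparison to hybridisation error.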
